A study of Zea mays with 4 samples.

Results

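ADP-glucose pyrophosphorylase is the enzyme that joins glucose 1-phosphate to ATP to make ADP-glucose, the building block of starch. The 6 maize genes described here are bt2, Agpsemzm, agpsl1, sh2, AGP2 and AGPLS3, out of 1108 genes with a name in the array's annotation. They were found as every probe set whose gene symbol or synonym equals one of those names, which gave 7 probe sets of 17620 maize probe sets, with 1 per gene except for 2 of sh2. The name AGP2 is also a synonym of Agpsemzm, and these genes were kept apart by their gene identifiers. Transcript levels were measured on 4 arrays, 2 with RNA of bt2 mutant kernels that carry the bt2-H2328 allele and 2 with RNA of wild-type kernels. Both groups came from untreated greenhouse plants and were taken 35 days after pollination. The labels give 20 µg of extracted RNA per sample except for mutant 2, with 17 µg, and 20 µg in each labelling. They do not say whether samples of a group came from separate plants, so p-values measure only how far these samples differ, which may be technical.

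The enzyme is built from small and large subunits, and both kinds are needed for full activity. In the endosperm of maize, most of the activity sits in the cytosol, which is unusual among plant tissues, and the ADP-glucose made there is carried into the plastid by the transporter encoded by bt1. Kernels that lack the endosperm small subunit (brittle-2) or large subunit (shrunken-2) fill with sugar in place of starch and collapse when they dry. Embryo and leaf have their own subunit genes, whose products work in plastids. bt2, Agpsemzm and agpsl1 are the small subunit genes of endosperm, embryo and leaf, in that order, and sh2 is the endosperm large subunit gene. AGP2 and AGPLS3 belong to the large subunits. The files give no product for any of them, so these roles are background.

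Expression is given as log2 GCRMA values, so that a difference of 1 is a 2-fold change. A probe set was kept where at least 2 arrays read 4 or more, and all 7 probe sets of the family were among the 10458 kept. Arrays of 1 group correlated at 0.980 and 0.986 across kept probe sets, and the median gap between both arrays of a group was 0.20 in the mutant and 0.18 in the wild type. With mutants 1 and 2, wild type 1 correlated at 0.910 and 0.905, and wild type 2 at 0.869 and 0.864. Mutant and wild type differed in much of the table. In limma's test, 43.2% of kept probe sets had an adjusted p under 0.05, 22.1% lower and 21.0% higher in the mutant, and in 78.5% the groups did not overlap. Probe sets for added poly-A control RNA read 1.20 higher on the mutant arrays (SD 0.32 over 36 probe sets), so the differences below are relative to the array-wide scale. Differences centred on these controls are given for the genes of the family, and where they turn the direction of another gene named below or end its call. Some genes that did not pass on the array-wide scale passed after centring, where 81.0% of kept probe sets were called lower.

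On the array-wide scale, the family split in the mutant into genes that fell and genes that did not pass. Of the 6 genes, bt2, agpsl1 and sh2 fell, and Agpsemzm, AGP2 and AGPLS3 did not pass the test, while none rose. Over all genes by 1 probe set, 29.4% fell and 20.9% rose. By probe set, with sh2 counted by both of its probe sets, 4 of 7 fell, and in 6 of 7 the groups did not overlap. These shares are to be read against 22.1% and 78.5% of all kept probe sets. The median difference over 1 probe set per gene was -0.65, against -0.01 over all kept probe sets. After centring on the poly-A controls, Agpsemzm also fell, at -1.35 (limma adjusted p 0.000587), so the split depends on the scale. Levels of different probe sets are not comparable, and only the differences between arrays are compared below.

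**Figure D1:**
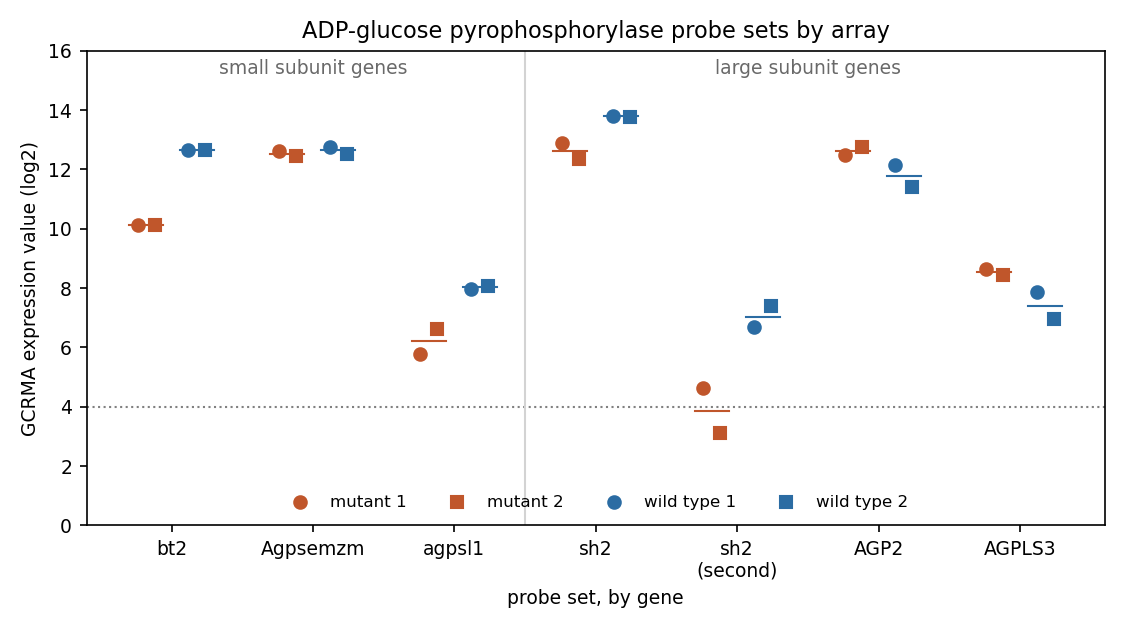
GCRMA expression value (log2) of each ADP-glucose pyrophosphorylase probe set on each array, with orange points for the mutant, blue for the wild type, circles for replicate 1, squares for replicate 2, a dotted line at the minimum of 4 and short lines for group means. The 4 arrays separate by genotype for every probe set except Agpsemzm, whose mutant arrays at 12.62 and 12.45 overlap with the wild-type arrays at 12.76 and 12.53.

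bt2, the mutated gene itself, fell the most among the genes that passed, when each gene is represented by its brightest probe set. Its probe set (gene LOC541902) read 10.13 in mutant 1 and 10.12 in mutant 2, against 12.67 in wild type 1 and 12.64 in wild type 2. Arrays of a group agreed to within 0.01 and 0.03, and the groups were 2.51 apart at their nearest values. The difference was -2.53 (SE 0.09, n = 2 per group), a 5.78-fold fall (limma adjusted p 0.00514), and its 95% interval was -2.77 to -2.29. Of all kept probe sets, 1.96% had a lower difference. The bt2 probe set still read 10.13 and 10.12 in the mutant, above the minimum of 4. Whether it also reads transcript of the other small subunit genes was not tested. In whole kernels, fewer cells of a type and less RNA per cell cannot be told apart.

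sh2, which encodes the large subunit that pairs with the bt2 product in the endosperm, fell too. Its brighter probe set (gene LOC542761) read 12.88 and 12.34 in mutants 1 and 2 and 13.80 and 13.78 in wild types 1 and 2. Both mutant arrays were lower than both wild-type arrays, by 0.90 at the nearest values, though the mutant arrays were 0.54 apart. The difference was -1.18 (SE 0.20, n = 2 per group), a 2.27-fold fall (limma adjusted p 0.0149).

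The second sh2 probe set was dimmer and differed more. It read 4.62 in mutant 1, 3.11 in mutant 2, 6.68 in wild type 1 and 7.40 in wild type 2, so that mutant 2 lay under the minimum of 4. The mutant arrays were 1.51 apart, a wider gap than in 98.6% of kept probe sets, and the wild-type arrays 0.72 apart. The difference was -3.17 (SE 0.59, n = 2 per group), with a limma adjusted p of 0.0178 and a 95% interval of -4.74 to -1.61. Its interval overlaps that of the brighter probe set, -1.71 to -0.65, only at its upper end. The platform annotation names the same transcript record for both probe sets. Where each lies in that transcript and which strand each reads were not analysed here.

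The embryo small subunit gene Agpsemzm was the 1 gene of the family whose groups overlapped. Its probe set (gene LOC542072) read 12.62 in mutant 1, 12.45 in mutant 2, 12.76 in wild type 1 and 12.53 in wild type 2. Mutant 1 lay between the wild-type arrays and mutant 2 below them. The difference was -0.11 (SE 0.13, n = 2 per group), with a limma adjusted p of 0.515, and the 95% interval ran from -0.45 to 0.23. A fall of Agpsemzm as large as that of bt2 or sh2 lies outside this interval on the array-wide scale.

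The leaf small subunit gene agpsl1 fell. Its probe set, for which RefSeq gives the symbol GLG1, read 5.79 in mutant 1 and 6.61 in mutant 2, while the wild-type arrays read 7.97 and 8.08. Both mutant arrays were lower than both wild-type arrays, and the mutant arrays were 0.82 apart against 0.11 for the wild types. The difference was -1.82 (SE 0.31, n = 2 per group), a 3.54-fold fall (limma adjusted p 0.0151). Probe sequences were not compared here, so whether this probe set also reads bt2 transcript was not tested.

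Both remaining large subunit genes read higher in the mutant, and neither passed. The probe set of AGP2 (gene LOC542737) read 12.48 and 12.77 on the mutant arrays, with 12.15 and 11.42 on those of the wild type. Its difference was 0.84 (SE 0.28, n = 2 per group), with a limma adjusted p of 0.0700 and a 95% interval of 0.10 to 1.58. The probe set of AGPLS3 (gene LOC100125657) read 8.65 and 8.43 on the mutant arrays, with 7.87 and 6.94 on those of the wild type. Its difference was 1.14 (SE 0.34, n = 2 per group), with a limma adjusted p of 0.0573 and a 95% interval of 0.21 to 2.06. In both genes the mutant arrays lay above the wild-type arrays, and wild type 2 was lower than wild type 1, by 0.73 for AGP2 and 0.93 for AGPLS3, gaps wider than in 94.2% and 96.9% of kept probe sets.

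These differences depend in part on the array-wide scale. Centring every array on the poly-A controls moved each difference by -1.24, so that bt2 read -3.77, agpsl1 -3.07 and sh2 -2.42, all with a limma adjusted p under 0.05. On that scale Agpsemzm read -1.35 and passed, with an adjusted p of 0.000587, while AGP2 read -0.40 and AGPLS3 -0.11, with adjusted p values of 0.218 and 0.771. On that scale 81.0% of kept probe sets were called lower and 2.88% higher. The direction of AGP2 and AGPLS3 therefore depends on the scale, while those of bt2, agpsl1 and sh2 are the same on both. The part of the amount of control RNA in these values was not tested.

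**Figure D2:**
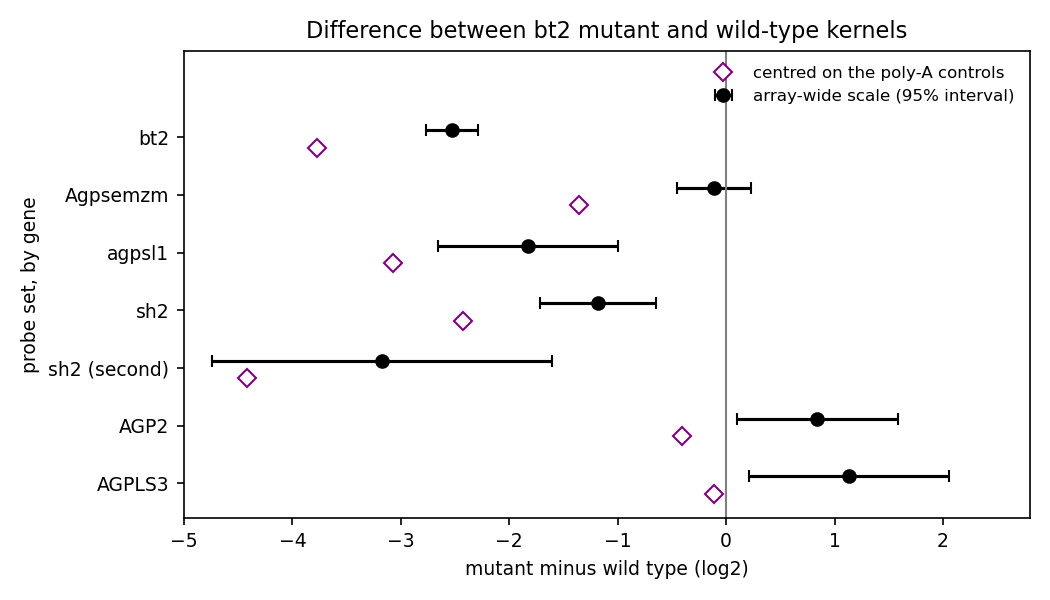
Mutant minus wild type (log2) for each probe set, with black points and 95% intervals on the array-wide scale and open purple diamonds after centring on the poly-A controls. bt2, agpsl1 and both probe sets of sh2 lie under 0 on both scales, while AGP2 and AGPLS3 lie above 0 at 0.84 and 1.14 and move to -0.40 and -0.11 after centring.

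A ratio of 2 genes within an array does not depend on that scale, so the genes were next compared with one another. For each of the 15 pairs, the log2 ratio on each array was compared between mutant and wild type with limma, fitted over the ratios of all kept probe sets to the same reference gene. All ratios to a gene share the noise of that gene, which the first fit does not account for. A second fit, added after the values were seen, combines the spread of the ratio itself with a prior spread taken from the fit of single probe sets. It uses limma's linear fit, with the moderated t test computed from this combined spread. The SE and interval given are those of the second fit, and both adjusted p values are given, the second fit's first. Of the 15 pairs, 10 passed in both fits and AGPLS3 against Agpsemzm only in the second. With 2 arrays against 2, the two-sided exact permutation test of a single ratio cannot go below p = 0.333. The shares of all ratios that passed are high. In the second fit they were 94.4% for ratios to bt2, 82.7% to agpsl1, 68.6% to sh2, 33.4% to AGPLS3, 32.3% to AGP2 and 30.7% to Agpsemzm. In the first they were 94.9%, 79.6%, 67.3%, 29.9%, 30.9% and 40.2% in the same order. With 1 array left out, the first fit called 6 pairs without mutant 1, 5 without mutant 2, 8 without wild type 1 and 3 without wild type 2. A group left with 1 array is there assumed to vary like the other group.

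Between the endosperm subunits, bt2 fell more than sh2. The log2 ratio of sh2 to bt2 was 2.75 and 2.22 in the mutants against 1.13 and 1.14 in the wild types. The ratio was higher in the mutants by 1.35 (SE 0.22, n = 2 per group), with limma adjusted p values of 0.00804 and 0.00136. The second sh2 probe set read -3.17, a larger fall than that of bt2, but its 95% interval of -4.74 to -1.61 holds the bt2 value of -2.53. Without mutant 2 it read -2.42 and bt2 -2.52, and with a pseudocount of 16 it read -2.23 and bt2 -2.51. The ratio of the second probe set to bt2 was not tested.

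Among the small subunits, the endosperm gene fell against the embryo gene. The log2 ratio of Agpsemzm to bt2 was 2.49 and 2.33 in the mutants but 0.09 and -0.11 in the wild types. The ratio was higher in the mutants by 2.42 (SE 0.15, n = 2 per group), with limma adjusted p values of 0.0108 and 4.44e-05. agpsl1 also fell against Agpsemzm, by 1.72 (SE 0.39), with adjusted p values of 0.0367 and 0.00372. The changes of agpsl1 and bt2 differed by 0.70, which did not pass, with adjusted p values of 0.103 and 0.229 and a 95% interval of -0.17 to 1.58.

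Among the large subunits, sh2 fell against both others. AGP2 rose against sh2 by 2.02 (SE 0.39, n = 2 per group), with limma adjusted p values of 0.0345 and 0.00148. AGPLS3 rose against sh2 by 2.31 (SE 0.36), with adjusted p values of 0.0402 and 0.00393. With the replicate number as a block, AGP2 against sh2 had an adjusted p of 0.162. The log2 ratio of AGP2 to sh2 was -0.40 and 0.43 on the mutant arrays, above the -1.65 and -2.36 of the wild type. AGP2 and AGPLS3 changed by amounts that differed by 0.29, with adjusted p values of 0.334 and 0.711 and a 95% interval of -0.34 to 0.93. The largest difference among all pairs was AGPLS3 against bt2, at 3.66 (SE 0.35), with adjusted p values of 0.0402 and 0.00021.

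On the array-wide scale, the genes that fell were 2 small subunit genes and 1 large subunit gene, and those that did not pass were 1 small and 2 large. The 10 pairs that passed in both fits were the 9 ratios across these sides and sh2 against bt2. The sides were drawn from the values themselves, so the 9 ratios are a description and no further support, and they stand beside the 94.4%, 82.7% and 68.6% of all ratios to bt2, agpsl1 and sh2 that passed in the second fit.

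**Figure D3:**
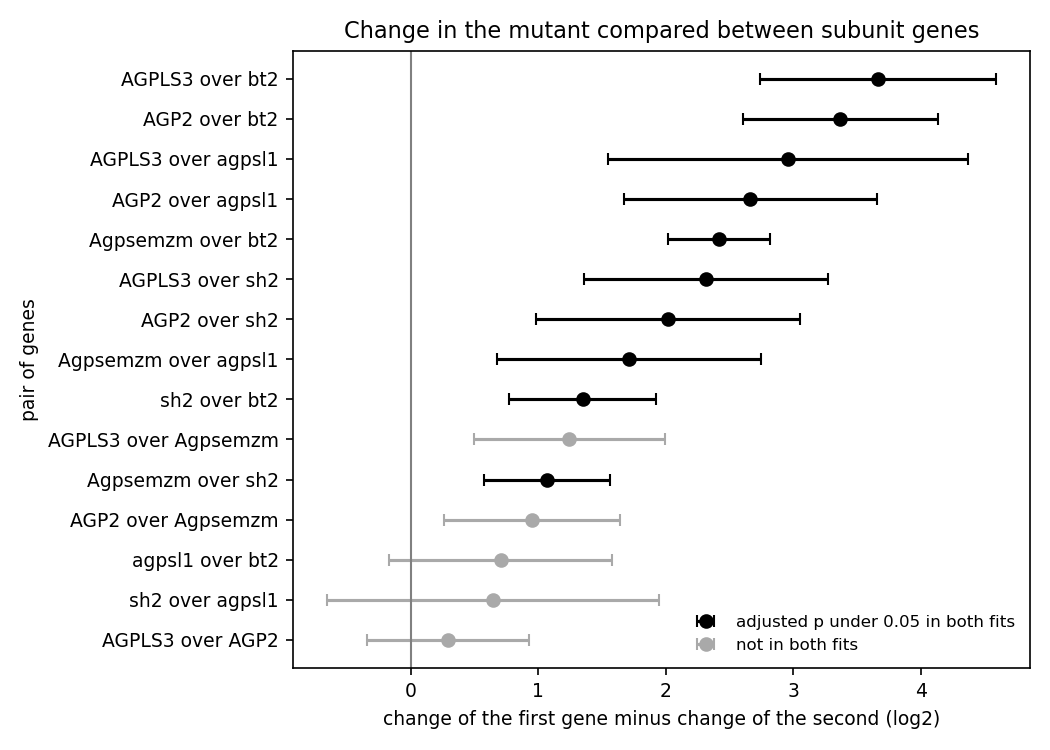
Change of the first gene minus change of the second (log2) for each of the 15 pairs of genes, with 95% intervals from the second fit, whose prior spread is that of the single probe set fit. Black points mark the 10 pairs that passed in both fits, from 1.07 for Agpsemzm over sh2 to 3.66 for AGPLS3 over bt2, and grey points the other pairs.

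With 1 array left out, the sizes changed little for bt2 and more for the others. The bt2 difference stayed between -2.55 and -2.52, sh2 between -1.45 and -0.91, agpsl1 between -2.23 and -1.42, AGP2 between 0.48 and 1.21 and AGPLS3 between 0.67 and 1.60. The highest AGP2 and AGPLS3 values came without wild type 1 and the lowest without wild type 2. The calls did not hold, as no probe set of the whole table passed limma's adjusted test without mutant 1, mutant 2 or wild type 2, and 1195 did without wild type 1. There bt2 passed at 0.0486 and AGPLS3 at 0.0494, while sh2 and agpsl1 did not, with 0.102 and 0.0952. At an unadjusted p under 0.05, 4 of the 7 probe sets passed without mutant 1, mutant 2 or wild type 2, where 43.2%, 44.1% and 34.7% of kept probe sets did, and 6 without wild type 1, where 43.1% did.

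**Figure D4:**
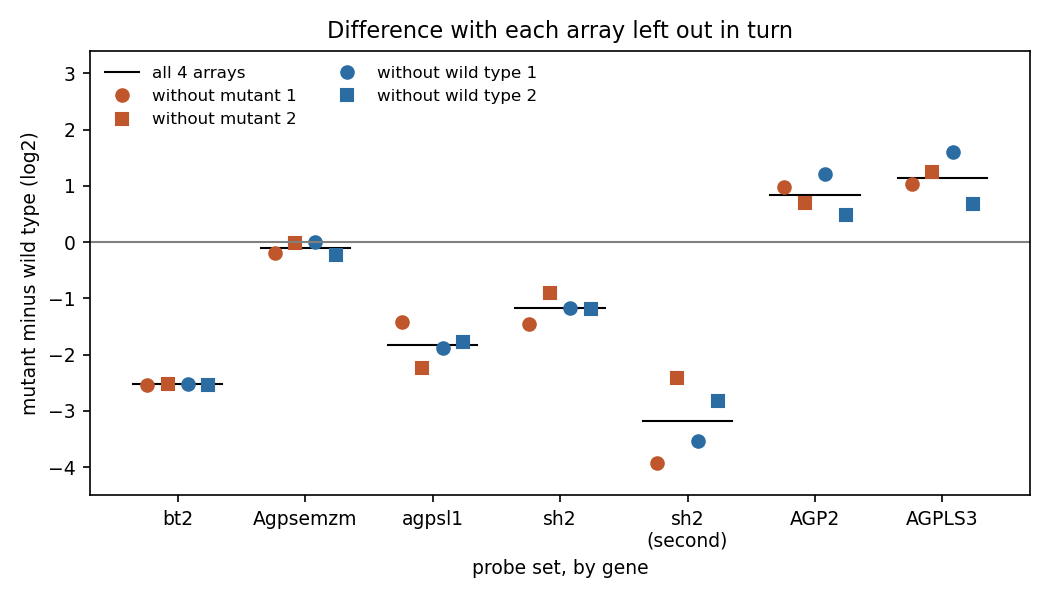
Mutant minus wild type (log2) for each probe set with all 4 arrays (black lines) and with each array left out in turn (points, orange for a mutant array left out and blue for a wild-type array). bt2 stays within -2.55 to -2.52, while the second sh2 probe set spans -3.93 to -2.42 and AGPLS3 0.67 to 1.60.

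Markers of the kernel's tissues moved as well. Of 4 kept starchy endosperm markers, 3 fell and 1 did not pass, where 29.4% of all genes by 1 probe set fell and 20.9% rose. Their median difference was -1.87, with summed levels of 12987 to 14573 in the mutants against 24642 to 25235 in the wild types, on the linear scale. fl2, an alpha zein gene, fell by 3.67 (SE 0.10), and zp27, a gamma zein gene, read -0.33 with a limma adjusted p of 0.0685, while its second kept probe set read -0.38 and passed at 0.0304. Centred on the poly-A controls, the brighter zp27 probe set read -1.57 and passed. Of 4 kept embryo markers, vp1, a transcription factor of seed maturation, rose by 0.47 with an adjusted p of 0.0467, though its second probe set read 0.07 and did not pass, and 3 did not pass. Their median was 0.28 and their summed levels were 82636 to 87424 in the mutants against 67576 to 75102 in the wild types. After centring on the poly-A controls, vp1 read -0.78, and the embryo markers that had not passed, the oleosin gene ole1 and the globulin genes glb1 and glb2, moved from 0.25, 0.32 and 0.14 to -0.99, -0.92 and -1.10. Of 4 kept markers of the transfer layer, through which the endosperm takes up sugar, meg2, betl1 and betl3 were under 4 on both mutant arrays and kept through the wild type alone, so no count is read from them. betl4, at 4 or more on every array, fell by 2.21. The summed level of the transfer layer markers was 72.0 to 107 in the mutants and 523 to 889 in the wild types. Of 4 green tissue markers, only psah1 was kept, at 6.10 and 6.28 on the mutant arrays against 2.53 and 2.59 on the wild-type arrays, and rbcS (the small subunit of Rubisco, listed as ssu1) read at most 4.25. Of the aleurone markers, dek1 rose by 1.64 and nkd1 fell by 1.02. Centred on the poly-A controls, dek1 read 0.39 with an adjusted p of 0.266. The part of tissue makeup in the subunit genes' values was not tested.

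Upstream of the enzyme, genes that bring sucrose to glucose 1-phosphate moved both ways. Of 7 kept genes, 2 rose, 2 fell and 3 did not pass, where 20.9% and 29.4% of genes by 1 probe set rose and fell. The cell wall invertase gene incw1, whose product splits sucrose outside the cell, read 9.04 and 9.05 on the mutant arrays against 4.98 and 4.59 on the wild-type arrays. That is a rise of 4.26 (SE 0.19), opposite to bt2. The sucrose synthase gene sus1 fell by 2.39 (SE 0.18), while the sucrose synthase genes sus2 and sh1 read 0.04 and -0.32 and did not pass. A second sh1 probe set fell by 2.77. The fructokinase gene frk2 fell by 1.03 and frk1 read 0.11 without passing. After centring, sus2 read -1.20, frk1 -1.14 and the brighter sh1 probe set -1.56, and each passed. With the replicate number as a block, frk2 had an adjusted p of 0.0574. The hexose phosphate isomerase gene phi1 rose by 0.50, which was -0.74 after centring on the poly-A controls, and its adjusted p was 0.0597 without the filter and 0.0582 without the mean-variance trend.

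Downstream, most kept genes that turn ADP-glucose into starch were lower. Of 8 kept genes, 5 were lower past the threshold, 1 was higher and 2 did not pass. Their median was -0.79, and the counts stand against the same shares of 29.4% and 20.9%. The plastid carrier gene bt1 fell by 1.24 (SE 0.31), the branching enzyme genes ae1 and sbe1 fell by 1.18 and 0.65, and the debranching enzyme genes zpu1 and iso2 fell by 1.06 and 0.94. A second probe set of ae1 read -0.65 and did not pass. By point estimate, none of these falls was as large as that of bt2 or agpsl1, but those of bt1 and ae1 were about that of sh2, at -1.18. The 95% interval of bt1 was -2.06 to -0.41. That of agpsl1, -2.65 to -0.995, overlaps the intervals of bt1, ae1, sbe1, zpu1 and iso2. The falls of these genes are therefore not shown to be smaller than that of agpsl1. Ratios of these genes to genes of the family are not reported here. The starch synthase gene ss1 rose by 0.93, but centred on the poly-A controls it read -0.31. wx1, which encodes the granule-bound starch synthase, read 13.97 and 13.91 in the mutants and 13.76 in both wild types and did not pass. Its difference of 0.18 became 0.48 with quantile normalization, which passed with an adjusted p of 0.0113, and -1.06 after centring on the poly-A controls. The debranching enzyme gene iso3 read -0.31 and did not pass, but centred on the poly-A controls it read -1.55 and passed. The starch synthase gene du1 was among the genes under 4 on every array. The count depended on the fit, with 2 falls and no rise when dim probe sets were kept in the test and 3 falls and no rise with the replicate number as a block. Centring on the poly-A controls gave 7 falls and no rise, and quantile normalization 5 falls and 2 rises.

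**Figure D5:**
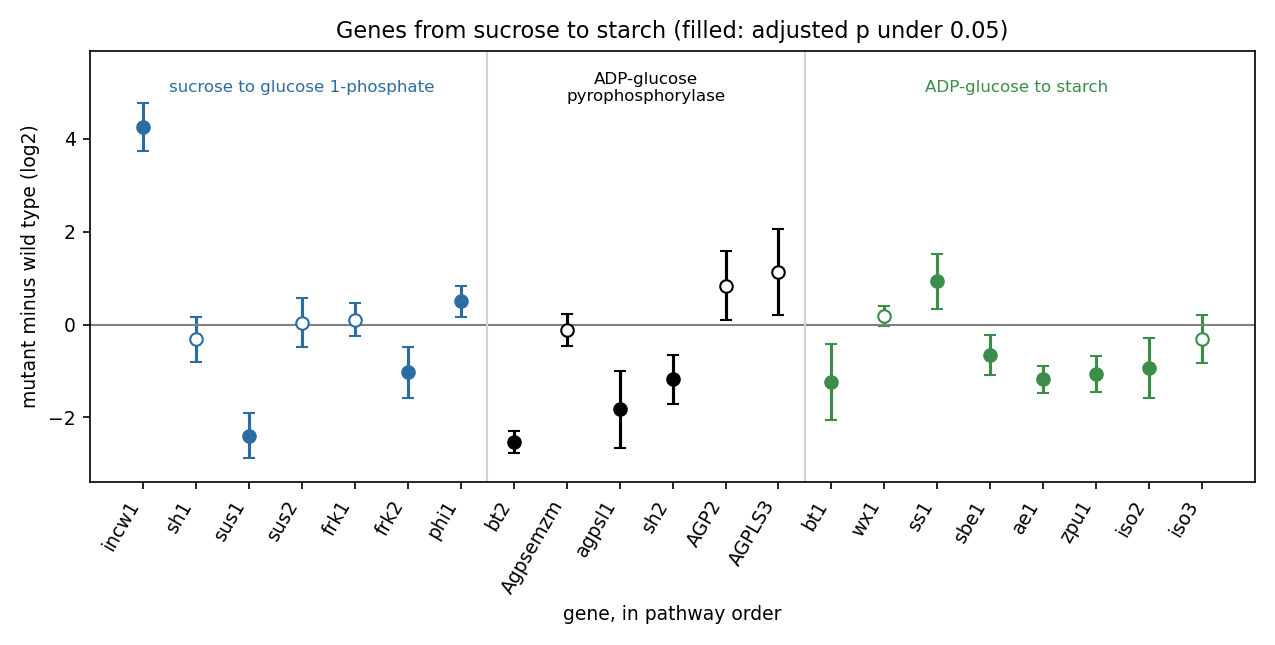
Mutant minus wild type (log2, with 95% intervals) for the kept genes from sucrose to starch, in pathway order, with the brightest probe set per gene and filled points for a limma adjusted p under 0.05. incw1 stands highest at 4.26 and bt2 lowest at -2.53, next to sus1 at -2.39.

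Genes with the pattern most like that of bt2 were found by the Euclidean distance between the 4 values, each probe set centred on its own mean, over 687 named genes. The 5 nearest were an1, an ent-copalyl diphosphate synthase of gibberellin synthesis, at a distance of 0.24, the beta-expansin gene expB8 at 0.26, pbf1, a transcription factor that binds zein promoters, at 0.32, the voltage-dependent anion channel gene vdac1b at 0.33, and sus1 at 0.36. The median distance over all kept probe sets was 2.54. Their differences ran from -2.70 for pbf1 to -2.30 for expB8. The same measure for Agpsemzm gave Hox2b, les22, nfd110, H+-PPase (vpp1) and xet1, at distances of 0.07 to 0.15 against a median of 0.69. Their differences lay between -0.13 and -0.02, and none of them passed. With 4 arrays in 2 groups, this measure mostly ranks genes by the size of the difference between mutant and wild type.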

How the data were processed

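The authors deposited a log2 value for each probe set and array, and per the submitters' processing notes GCRMA was the tool. GCRMA takes probe sequence into account when it removes background. The sources used here do not give its version or say whether arrays were normalized together. The log base was read from the values, which run from 1.31 to 15.44. Of 17734 probe sets, 113 controls and 1 without values were left out. Names came from the platform annotation, updated by gene identifier with a RefSeq table of Zm-B73-REFERENCE-NAM-5.0, which held 1377 of 1452 probe sets with 1 gene. Coordinates are left out because no build is named.

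Probe sets with a log2 value of 4 or more on at least 2 arrays were tested with limma 3.58.1 in R 4.3.3 (lmFit and eBayes, trend on mean level, two-sided tests, Benjamini-Hochberg over 10458 probe sets, threshold 0.05). SE is the moderated standard error. The probe set with the highest mean stands for a gene. Ratios between genes were fitted likewise over 10457 ratios per reference, and the larger adjusted p of both reference choices is given. The alternative for their spread sums the prior variances of both probe sets, with 2.41 prior degrees of freedom, and was chosen after seeing the values. With 2 arrays per group, precision is limited by their number.

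Named genes are all members, all kept genes of both pathway lists, du1, some of the tissue markers, and the 5 nearest patterns to bt2 and to Agpsemzm. Members and lists were chosen with earlier results of these data known. A gene listed as glb1 with the further names Hb and Hbm was left out of the embryo markers after the annotation was seen. Other settings changed the filter, normalization, variance model, array weights, a pseudocount of 16, the replicate block and the arrays used. The fit was also run on simulated data with few changed probe sets and independent noise. That setting differs from these data, so the run is no support for the calls. Figures were drawn with matplotlib 3.10.9.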

Additional observations from a re-analysis of the deposited data

Results flagged for a closer look

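The poly-A control probe sets entered comparisons of genes only through the alternative centred on them. They read 1.20 higher on the mutant arrays, at 1.22 for mutant 1 and 1.11 for mutant 2 over the wild-type mean. They were marked as a signal outside the main measurement that is above the level in the control samples. All 36 of these probe sets were higher, and they read only a few RNAs, so their number does not measure the spread between samples. Hybridisation controls differed by 0.14 (SD 0.11 over 27 probe sets). The cause was not tested.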

How the results depend on the processing

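The falls of bt2, sh2 and agpsl1 kept their direction in every alternative run and passed limma's test in all that used the 4 arrays, with adjusted p values up to 0.0293, 0.0471 and 0.0457. Centring on the poly-A controls called 8769 probe sets, 301 higher and 8468 lower, gave Agpsemzm -1.35 (past the threshold), and turned AGP2 to -0.40, AGPLS3 to -0.11, ss1 to -0.31, wx1 to -1.06, sus2 to -1.20, frk1 to -1.14 and phi1 to -0.74. It called all 7 kept genes from sucrose to glucose 1-phosphate, 1 higher and 6 lower, and 7 of 8 kept genes from ADP-glucose to starch, all lower. Quantile normalization called AGP2 at 0.93 and wx1 at 0.48, and a minimum of 6 called AGPLS3 at 1.14 (adjusted p 0.0382, 0.0113 and 0.0426). From ADP-glucose to starch, 2 genes passed without the filter and 3 with the replicate block, under which AGP2 against sh2 did not pass. Without 1 array, calls ran from 0 to 1195 over all probe sets, from 0 to 2 of 7 member probe sets, from 0 to 2 genes from sucrose to glucose 1-phosphate, at 0 from ADP-glucose to starch, and from 3 to 8 of 15 pairs. The differences then ran from -2.55 to -2.52 for bt2, -1.45 to -0.91 for sh2, -2.23 to -1.42 for agpsl1, -0.23 to 0.005 for Agpsemzm, 0.48 to 1.21 for AGP2 and 0.67 to 1.60 for AGPLS3. The sign also turned for sus2, from 0.04 to between -0.18 and 0.27, and for agpsl1 against sh2, from -0.65 to between -1.32 and 0.035. The labels do not say what a replicate number shares. Differences between replicates 1 and 2 correlated at 0.02 between the groups, and the replicate block called 3444 probe sets, with bt2 at an adjusted p of 0.0293. The second sh2 probe set lost its call there and without the filter. No other cause of these changes was tested.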
